A study of Mus musculus with 26 samples.

Results

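The genes of sterol and fatty acid synthesis described here are the enzymes that build cholesterol and long-chain fatty acids, together with the factors that control them. They were taken from a list of pathway members and matched by symbol to the Ensembl IDs of the count table, which gave 33 of its 55487 genes. The list holds 18 sterol enzymes, 6 regulators and carriers, and 9 fatty acid enzymes. All 33 passed the filter on low counts, which left 17143 genes for testing.

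RNA came from 2 kinds of macrophage of the mouse lung. Resident alveolar macrophages (AM) live in the airspaces, and bone marrow-derived macrophages (BM) are the cells that the labels set apart from them by origin. Lipopolysaccharide (LPS), a component of the outer membrane of Gram-negative bacteria, was given into the trachea. The 7 groups were AM without treatment (day 0, n = 3), AM at day 1 (n = 4), day 3 (n = 3) and day 7 (n = 4) after LPS, and BM at day 1 (n = 5), day 3 (n = 4) and day 7 (n = 3) after LPS. BM at day 0 is not analysed here. The labels give no strain, sex, LPS dose or sorting gate, and the word Young stands in the descriptions of the AM day 0 libraries alone. They do not say whether the libraries of a group came from separate mice, so a p-value here measures only how far these samples spread, and that spread may be technical.

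Total counts per library ran from 9.18 to 80.8 M (mega counts), with the deepest libraries at AM day 0. Levels are in CPM, the counts per M counts of the scaled library size. The summed level of 10 alveolar macrophage markers was 16484 to 31219 CPM in the AM libraries and 562 to 968 CPM in BM at day 1. It was 1357 to 3863 CPM in BM at day 3. In BM at day 7 it was 13576, 14445 and 2396 CPM in replicates 1, 2 and 3. The sum of 8 blood monocyte markers was 2472 to 3081 CPM in BM at day 1, 1853 to 3446 CPM in BM at day 3 and 538 to 673 CPM in BM at day 7. In AM it was 236 to 242 CPM at day 0, 187 to 308 CPM at day 1 and 178 to 224 CPM at day 7. In AM at day 3 it was 535, 1894 and 731 CPM in replicates 1, 2 and 3, so that replicate 2 lay within the BM day 3 range. BM day 3 replicate 1 and BM day 1 replicate 3 had the fewest genes at 1 CPM or more, 7419 and 9022. BM day 3 replicate 1 held 27619 CPM of 9 fibroblast and endothelium markers against 98.0 to 386 CPM in the other BM day 3 libraries. At day 1 that sum was 264 to 440 CPM in BM and 55.9 to 110 CPM in AM, without overlap. Its part in the differences between BM and AM was not tested. Library prefixes set AM at day 0 apart from all other groups, and likewise BM at day 1, so that prefix and group cannot be told apart there. The other 18 libraries share a prefix and carry a number of 24 or lower (the low range) or of 26 or higher (the high range), whose meaning the labels do not give. A model term for this range counted AM at day 0 and BM at day 1 with the high range, though they have other prefixes. Under that term, comparisons with AM at day 0 or BM at day 1 rest on this coding. The sum of 4 Y-linked genes was 146 to 227 CPM in AM at days 0, 1 and 3, at most 4.09 CPM in AM at day 7, 7.75 to 38.4 CPM in BM at day 1, 0.0479 to 169 CPM in BM at day 3 and at most 3.81 CPM in BM at day 7. Where compared groups do not overlap in this sum, as BM and AM at day 1, a model term for it rests on the spread within groups. In these bulk samples, fewer cells of a type and less RNA per cell cannot be told apart.

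Cholesterol is built from acetyl-CoA through mevalonate, the isoprenoid diphosphates, squalene and lanosterol. Most enzymes of this route are transcribed under SREBP-2, the product of Srebf2, a membrane-bound factor that Scap escorts out of the endoplasmic reticulum when sterols are low and that the Insig proteins hold back when sterols are high. SREBP-1c, a product of Srebf1, favours the fatty acid genes and is itself transcribed under LXR, the receptor for oxidised sterols. Macrophages of the airspaces take up and recycle the lipids of surfactant, and Toll-like receptor signalling is known to alter both routes in macrophages.

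The promoters show what these genes share in sequence. RefSeq windows (GRCm38.p6) of 300 bases, from 250 before to 50 after a start site, were found for 26 of the 33 genes. Fdps, Fdft1, Sqle, Stard4, Scd1, Scd2 and Fads1 had no window in the table. A sterol regulatory element, searched as TCACNCCAC on both strands, lay in the window of Hmgcs1 and of no other member (1 of 26 genes, 3.85%), against 1.44% of the 27025 genes with a window. The CCAAT box, the element bound by NF-Y, searched as CCAAT on both strands, lay in 14 of 15 sterol enzymes (93.3%), 4 of 5 regulators and 3 of 6 fatty acid enzymes (50%), against 41.1% of all genes with a window. Acat2 was the sterol enzyme without it. A match to the longer motif cannot contain the shorter one. The 250 bases before the start site are printed 5′ to 3′ for 3 enzymes of the sterol route, the sterol sensor Insig1 and fatty acid synthase, chosen after their values were seen. Capitals mark the motif matches, and ATTGG is CCAAT read on the other strand.
Hmgcs1: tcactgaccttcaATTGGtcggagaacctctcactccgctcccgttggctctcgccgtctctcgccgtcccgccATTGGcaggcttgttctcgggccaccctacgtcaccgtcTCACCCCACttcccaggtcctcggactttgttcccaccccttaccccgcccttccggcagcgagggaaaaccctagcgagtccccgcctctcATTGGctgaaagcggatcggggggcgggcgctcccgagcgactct
Mvd: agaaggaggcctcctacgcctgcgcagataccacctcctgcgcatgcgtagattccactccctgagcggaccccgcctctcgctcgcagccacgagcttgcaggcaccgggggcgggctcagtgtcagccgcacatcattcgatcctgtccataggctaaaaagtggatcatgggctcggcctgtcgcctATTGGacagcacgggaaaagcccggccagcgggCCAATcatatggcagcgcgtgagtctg
Msmo1: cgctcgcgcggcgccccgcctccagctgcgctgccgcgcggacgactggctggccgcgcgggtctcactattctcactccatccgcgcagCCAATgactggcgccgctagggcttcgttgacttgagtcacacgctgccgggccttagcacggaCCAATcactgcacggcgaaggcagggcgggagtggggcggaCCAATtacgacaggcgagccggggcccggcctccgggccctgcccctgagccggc
Insig1: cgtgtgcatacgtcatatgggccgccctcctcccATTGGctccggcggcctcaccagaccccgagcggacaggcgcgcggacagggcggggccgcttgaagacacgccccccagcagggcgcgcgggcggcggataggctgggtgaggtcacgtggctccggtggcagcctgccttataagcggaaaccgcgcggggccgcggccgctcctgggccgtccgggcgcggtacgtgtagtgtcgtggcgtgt
Fasn: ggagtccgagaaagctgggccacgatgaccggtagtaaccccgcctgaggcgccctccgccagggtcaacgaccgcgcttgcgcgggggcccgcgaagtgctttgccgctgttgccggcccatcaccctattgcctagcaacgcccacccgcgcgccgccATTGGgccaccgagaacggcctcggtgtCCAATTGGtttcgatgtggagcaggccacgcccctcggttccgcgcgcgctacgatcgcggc
They lie on the plus strand at chr13:119690101-119690350 for Hmgcs1 and at chr5:28071162-28071411 for Insig1, and on the minus strand at chr8:122443423-122443672 for Mvd, at chr8:64733579-64733828 for Msmo1 and at chr11:120824548-120824797 for Fasn. In Hmgcs1 the sterol regulatory element TCACCCCAC began 137 bases before the start site, between ATTGG boxes at 176 and 45 bases before it. A match is a description of letters, and no match says only that the letters are not in that window.

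Levels before LPS spanned a wide range. Per exon length (RPKM, the CPM divided by the exon length in kilobases), the highest means in AM at day 0 were those of Acly, which makes cytosolic acetyl-CoA for both routes, at 69.0 ± 10.6 RPKM (SD, n = 3), Mvd, the mevalonate diphosphate decarboxylase, at 48.9 ± 4.18 RPKM, and the elongase Elovl5 at 42.4 ± 2.49 RPKM. Insig1 followed at 39.8 ± 1.25 RPKM and its libraries overlapped with those of Elovl5. Srebf2 and Srebf1 stood at 28.3 ± 0.948 and 28.2 ± 2.51 RPKM and did not differ beyond their spread. The lowest were the desaturase Fads2, at 0.781 ± 0.195 RPKM, and Fdps, the farnesyl diphosphate synthase, at 0.284 ± 0.115 RPKM. The level of Fdps is uncertain, because part of its sequence also stands in other genes.

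**Figure D1:**
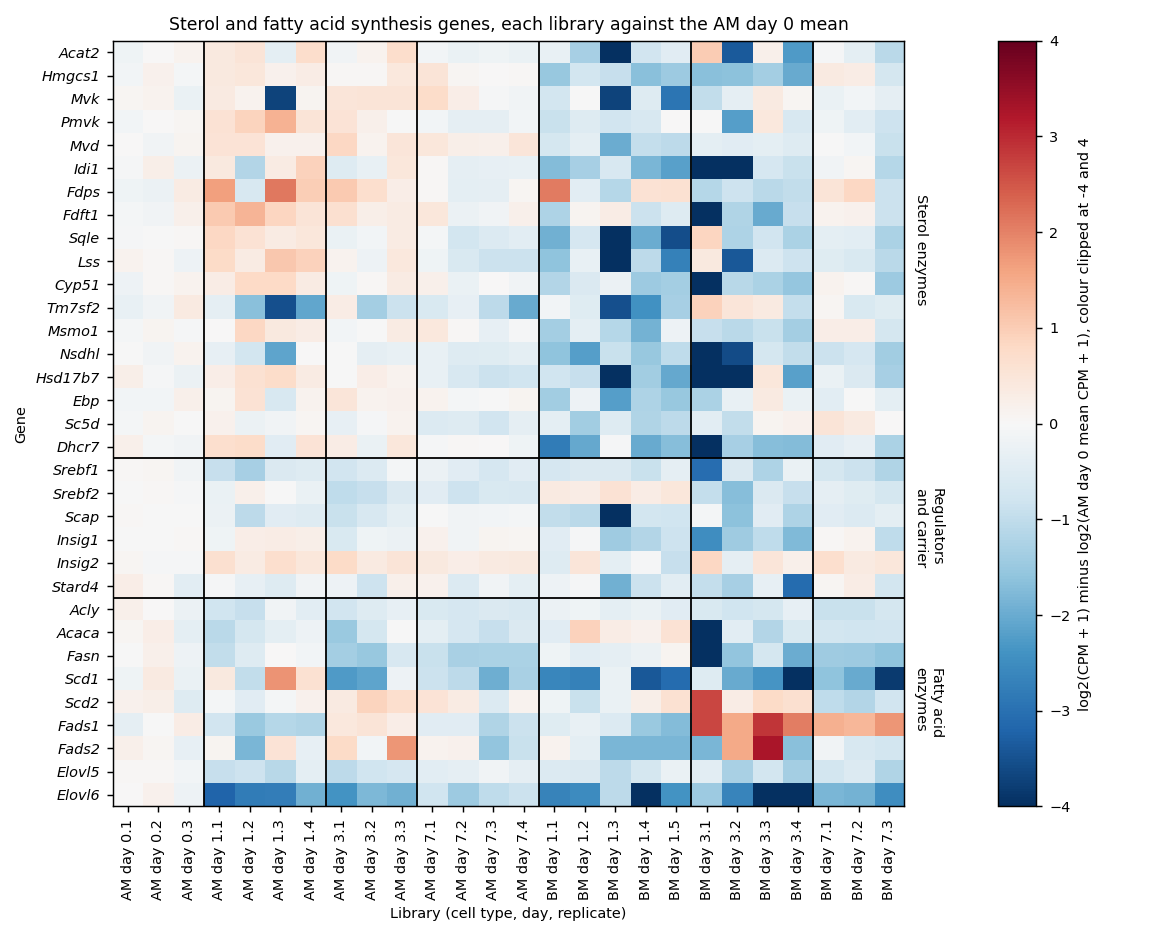
Level of each of the 33 genes (rows) in each of the 26 libraries (columns) as log2(CPM + 1) minus log2 of the AM day 0 mean CPM + 1, with colours clipped at -4 and 4. The BM libraries of days 1 and 3 are blue over most of the 18 sterol enzymes, and the regulators and fatty acid enzymes are also mostly blue there, with 0 to 2 of 6 and 1 to 3 of 9 genes above the AM day 0 mean in a library.

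Calls were uneven over the comparisons. In BM against AM at day 1, 11 of 33 members were called at an adjusted p under 0.05 (1 higher, 10 lower), against 29% of all genes tested (15.2% higher, 13.8% lower). At day 3 it was 4 of 33 (1 higher, 3 lower), against 3.98% (0.997% higher, 2.99% lower). At day 7 it was 1 of 33, higher, against 1.77% (1.48% higher, 0.286% lower). At day 1 and day 7 the share of members was near that of all genes.

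From day 1 to day 3 in BM, 6 of 33 were called (3 higher, 3 lower), against 25.9% (10.6% higher, 15.2% lower). From day 3 to day 7 in BM, 3 of 33 were called (2 higher, 1 lower), against 3.98% (3.09% higher, 0.898% lower). The change from day 3 to day 7 differed between BM and AM for 1 of 33, against 0.362% (0.338% higher, 0.0233% lower). The change from day 1 to day 3 differed for none, against 11.5% (3.52% higher, 8.02% lower); 3 members had an unadjusted p under 0.05 and DESeq2 called Fads1.

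Within AM there were few calls. Day 1 against day 0 gave 1 of 33, lower, against 6.28% (3.22% higher, 3.06% lower), and day 3 against day 0 gave 1 of 33, lower, against 2.51% (1.78% higher, 0.723% lower). No member was called at day 7 against day 0, where 0.677% of all genes were (0.408% higher, 0.268% lower), at day 3 against day 1 (0.834%; 0.624% higher, 0.21% lower) or at day 7 against day 3 (1.59%; 0.233% higher, 1.35% lower). In each of those 3 comparisons 2 members had an unadjusted p under 0.05, and DESeq2 called 1, 2 and 0. Fitted on the compared groups alone, more members were called at days 1, 3 and 7 against day 0 and at day 7 against day 3. Those counts are given with the other settings below, so the low counts here hold for the fit of all libraries. The smaller fits also redid the filter and the scaling, and the cause of the difference was not tested. The AM comparisons with day 0 share their control libraries, and successive comparisons share a middle group.

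Sterol enzymes were lower in BM than in AM at days 1 and 3. At day 1, 17 of 18 had a fold change below 0 on the log2 scale, with a median of -1.37, where the median of all genes tested was 0.06. At that day 8 of 18 were called lower and none higher, while 13.8% of all genes were called lower. At day 3, 17 of 18 were again below 0 with a median of -1.05, against -0.07 for all genes, and 2 of 18 were called lower, where 2.99% of all genes were. At day 7 the median was -0.22 against 0.03, with 15 of 18 below 0 and none called; 1 had an unadjusted p under 0.05 and DESeq2 called 0. The exception at days 1 and 3 was Tm7sf2, a sterol C14 reductase, at 0.49 and 0.89. Over the other settings of scaling, filter, test and covariates, 15 to 17 of the 18 lay below 0 at day 1, and 16 or 17 at day 3. The sum of 10 neutrophil markers ran from 563 to 1373 CPM in BM and from 104 to 591 CPM in AM at day 1. At day 3 it ran from 327 to 3349 CPM in BM and from 161 to 381 CPM in AM. The groups overlapped at both days. The 3349 CPM was BM day 3 replicate 1, and the other BM day 3 libraries had 599, 499 and 327 CPM. At day 1, 3 of 10 were called higher and 0 lower, where 15.2% of all genes were called higher. At day 3, 1 was called higher and 1 lower, where 0.997% of all genes were called higher. Ly6g was at 0 to 8.02 CPM in BM at day 1. The part of these markers in the result was not tested.

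The summed level of the 18 sterol enzymes gave the same order by library. It was 710, 736 and 752 CPM in AM at day 0, and 1001, 1105, 921 and 947 CPM in AM at day 1. In BM it was 316, 473, 359, 280 and 323 CPM at day 1, and 389, 317, 494 and 352 CPM at day 3. All BM libraries of days 1 and 3 lay below all AM libraries. In BM at day 7 it was 729, 716 and 389 CPM, so that replicates 1 and 2 lay within the AM day 7 range of 659 to 849 CPM and replicate 3 lay within the BM day 3 range. Replicate 3 is also the BM day 7 library with the low alveolar macrophage marker sum of 2396 CPM and the one whose library number lies in the low range; the part of either in its level was not tested.

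**Figure D2:**
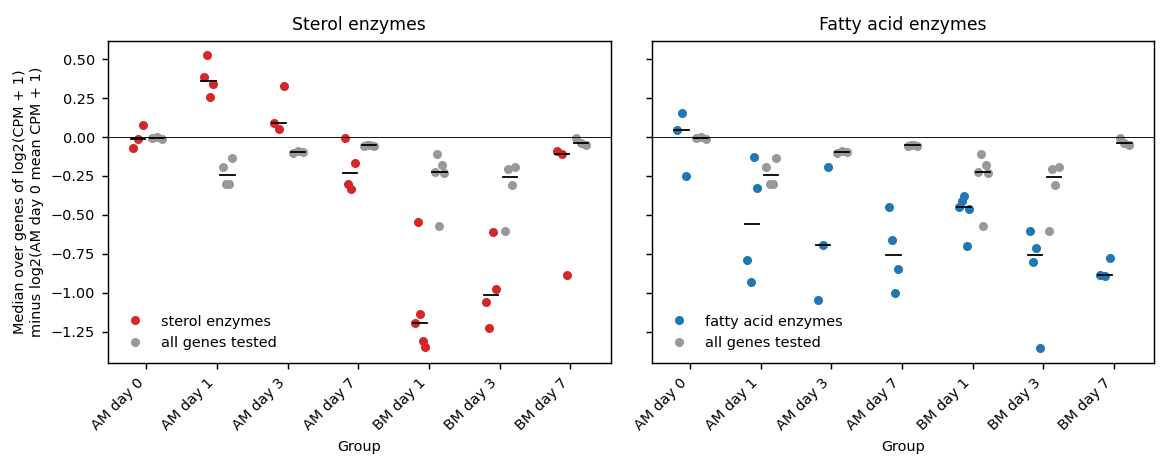
Median over the genes of a branch of log2(CPM + 1) minus log2 of the AM day 0 mean CPM + 1, 1 point per library, by group, for the 18 sterol enzymes (left) and the 9 fatty acid enzymes (right), with the same over all genes tested in grey and bars at the group medians. The sterol medians of BM at days 1 and 3 lie between -1.35 and -0.55, below all AM libraries, and BM day 7 replicate 3 lies at -0.88 apart from the other BM day 7 libraries.

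Hmgcs1, which condenses acetoacetyl-CoA to HMG-CoA at the head of the mevalonate route, had the smallest adjusted p of the branch at both days. Its level was 95.3, 115 and 97.1 CPM in AM at day 0, and 133, 141, 117 and 126 CPM in AM at day 1. It was 106, 106 and 137 CPM in AM at day 3 and 148, 109, 105 and 105 CPM in AM at day 7. In BM it was 34.8, 61.1, 53.5, 31.2 and 37.0 CPM at day 1, then 31.3, 32, 39.6 and 24.4 CPM at day 3, and 131, 127 and 63.1 CPM at day 7. The groups of BM and AM did not overlap at days 1 and 3, and at day 7 replicates 1 and 2 of BM lay among the AM libraries. BM against AM gave a log2 fold change of -1.57 ± 0.23 (SE) at day 1, or 2.97-fold lower (edgeR adjusted p = 6.6e-06), and -1.87 ± 0.26 at day 3, or 3.66-fold lower (adjusted p = 0.0001). Fitted on the compared groups alone, the day 3 difference had an adjusted p of 0.057. At day 7 the difference was -0.12 and was not called. From day 3 to day 7 it rose 3.36-fold in BM (1.75 ± 0.26, adjusted p = 0.00019; 0.1 when the compared groups were fitted alone), while AM at day 7 and day 3 had a difference of 0.0021 ± 0.26.

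The difference between those changes was itself called for Hmgcs1, 1.75 ± 0.36 (adjusted p = 0.03), and for no other member. Of the sterol enzymes, 17 of 18 had a difference above 0 with a median of 1.05, against 0.24 for all genes tested. Among the fatty acid enzymes 3 of 9 were above 0, with a median of -0.26. The call for Hmgcs1 ended without any of 9 libraries (AM day 0 replicate 2, AM day 3 replicates 1, 2 and 3, AM day 7 replicates 2, 3 and 4, BM day 7 replicates 1 and 2; adjusted p 0.051 to 0.13), with the value between 1.57 and 2.01. It also ended with no filter on low counts, with a term for the library number range and with the Y-linked sum in the model (adjusted p of up to 0.15).

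The day 3 difference was measured within each range of library number. Among libraries numbered 24 or lower, 2 BM against 1 AM library, Hmgcs1 differed by -2.09 on the log2 scale, and among those numbered 26 or higher, 2 against 2, by -1.70. The median of the sterol enzymes was -1.18 in the low range and -0.65 in the high range. At day 7 only the low range holds both cell types, 1 BM against 4 AM libraries, where Hmgcs1 differed by -0.87. The rise of Hmgcs1 in BM from day 3 to day 7 was 0.98 in the low range and 1.98 in the high range. At day 1 all BM libraries have a prefix of their own, so no such value exists.

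The next steps of the mevalonate route were lower in BM too. Pmvk, the phosphomevalonate kinase, was 51.7, 65.5, 91.4 and 49.7 CPM in AM at day 1 and 18.3, 23.9, 20.1, 21.6 and 34.6 CPM in BM at day 1, with no overlap (-1.45 ± 0.39, adjusted p = 0.0067, and 0.075 once Y-linked level entered the model). Mvd ran from 101 to 132 CPM in AM at day 1 and from 22.3 to 68.9 CPM in BM at day 1 (-1.31 ± 0.24, adjusted p = 0.00013). At day 3 Mvd ran from 100 to 161 CPM in AM and from 63.2 to 69.5 CPM in BM, again without overlap (-0.95 ± 0.27, adjusted p = 0.042). Leaving out any 1 of 14 libraries ended that day 3 call, with an adjusted p of 0.051 to 0.22, and so did library size alone as the scaling, no filter, the compared groups alone, the library number range and the Y-linked sum. Idi1, the isopentenyl diphosphate isomerase, differed by -1.86 ± 0.84 at day 1 and was not called (adjusted p = 0.096).

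Fdps was close to the floor of detection. Its level was 8.30, 0.646, 0, 2.27 and 2.33 CPM in BM at day 1 and 0, 0.240, 0.0428 and 0.11 CPM in BM at day 3. Day 3 was called lower than day 1 (adjusted p = 0.027), but the day 3 libraries hold at most 5 counts of it each, so no fold is given. The call ended without BM day 1 replicate 1, BM day 3 replicate 1 or BM day 3 replicate 3 (adjusted p 0.057 to 0.064), with no filter and with a term for the library number range. Of the 50-base words in the transcripts of Fdps, 26.2% also stand in 8 other genes, so its counts are uncertain. Gm43738 leads these genes. It is annotated as protein-coding, overlaps Fdps on the same strand and reached at most 0.341 CPM.

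Of the enzymes from squalene onward, Sqle, Lss and Dhcr7 had the largest called differences of the branch at day 1. Sqle, the squalene epoxidase, which is a rate-limiting step of the route, was 86.7, 73.0, 61.3 and 66.9 CPM in AM at day 1. In BM at day 1 it was 11.9, 30.2, 0, 11.6 and 3.26 CPM, all below the AM libraries (-2.66 ± 0.74, 6.31-fold lower, adjusted p = 0.0091; 0.095 when the compared groups were fitted alone). The 0 of BM day 1 replicate 3 allows a level of up to 0.214 CPM, a floor of 3 counts. At day 3 Sqle was 39.9, 45.3 and 61.1 CPM in AM and 89.2, 20, 28.1 and 19.5 CPM in BM, and BM day 3 replicate 1 was the highest of all. The day 3 difference was -0.32 and was not called.

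Lss, which closes squalene epoxide to lanosterol, was 38.8, 28.4, 48.1 and 42.9 CPM in AM at day 1. In BM at day 1 it was 6.65, 17.9, 0, 10.2 and 2.60 CPM, below every AM library (-2.40 ± 0.83, adjusted p = 0.032). Dhcr7, which makes cholesterol from its last precursor, was 81.3, 83.8, 36.2 and 73.9 CPM in AM at day 1 and 6.39, 11.5, 48.7, 11.8 and 14.7 CPM in BM at day 1 (-1.89 ± 0.64, adjusted p = 0.03). The groups overlapped through BM day 1 replicate 3. Leaving out AM day 1 replicate 1, 3 or 4 or BM day 1 replicate 1 or 5 ended the Lss call (adjusted p 0.057 to 0.076), and leaving out AM day 1 replicate 1, 2 or 4 or BM day 1 replicate 1, 2, 4 or 5 ended the Dhcr7 call (adjusted p 0.054 to 0.071). The Y-linked sum ended both, no filter ended that of Dhcr7, and the compared groups alone and the library number range ended that of Lss.

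Msmo1, the C4 methyl sterol oxidase, ran from 62.3 to 111 CPM in AM at day 1 and from 16 to 54.1 CPM in BM at day 1 (-1.31 ± 0.30, adjusted p = 0.0019). Ebp, the sterol isomerase, ran from 34.9 to 83.2 CPM and from 11.3 to 47.4 CPM (-1.30 ± 0.34, adjusted p = 0.0057; 0.051 once the Y-linked sum entered the model) and rose in BM from day 1 to day 3 (0.93 ± 0.34, adjusted p = 0.046). That rise was not called without any 1 of 18 libraries (adjusted p 0.050 to 0.19), nor with no filter, the stricter filter, the compared groups alone or the Y-linked sum. Cyp51, the lanosterol demethylase, differed by -1.48 ± 0.63 at day 1 and -1.82 ± 0.71 at day 3 without overlap and was not called at either day (adjusted p = 0.077 and 0.15). Fdft1, the squalene synthase, differed by -1.32 ± 0.58 and -2.20 ± 0.67, also without overlap or a call (adjusted p = 0.084 and 0.06). The calls of Hmgcs1, Mvd and Msmo1 at day 1 stood under every alternative run.

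**Figure D3:**
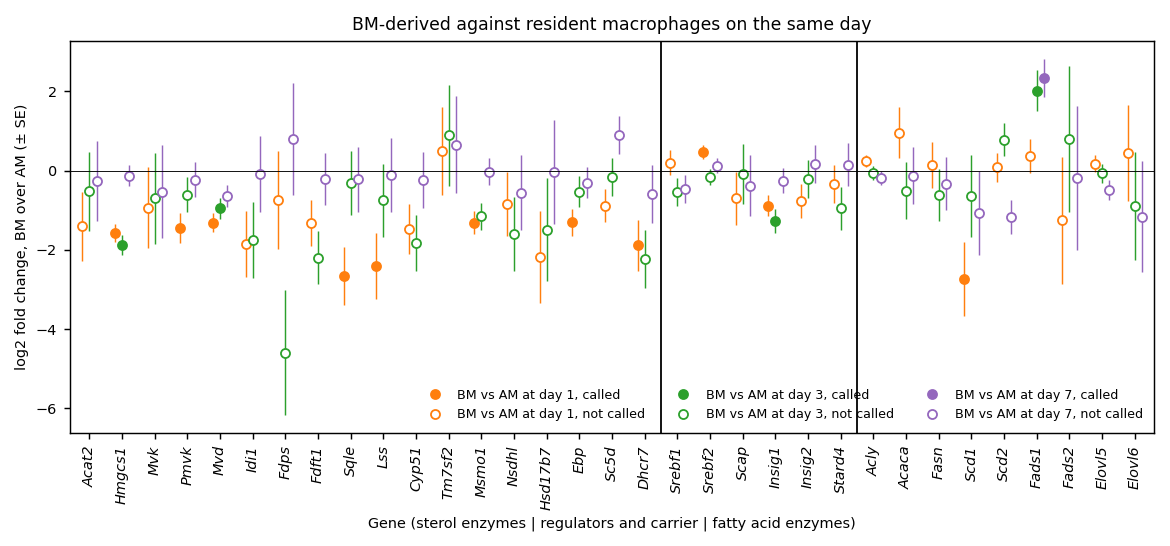
Log2 fold change of BM over AM on the same day with its standard error for each of the 33 genes, at day 1 (orange), day 3 (green) and day 7 (purple), with filled points for calls at an adjusted p under 0.05. Orange and green points of the sterol enzymes lie below 0 for 17 of 18 genes, and those of the fatty acid enzymes lie on either side of it.

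Both libraries that stand apart lie in BM groups, and more sterol enzymes were called without them. Without BM day 3 replicate 1 and BM day 1 replicate 3, 12 of 18 sterol enzymes were called lower in BM at day 1, where 40.4% of all genes were called in either direction, and 6 of 18 at day 3, where 6.13% were. Idi1 (adjusted p = 0.015), Fdft1 (0.00017), Cyp51 (8.8e-06) and Sc5d (0.016) joined the calls at day 1. At day 3 Fdft1 (adjusted p = 0.0023), Cyp51 (0.0043), Msmo1 (0.032) and Dhcr7 (0.001) joined Hmgcs1 and Mvd. The medians were then -1.33 at day 1, nearer to 0 than with them, and -1.20 at day 3, farther from it. From day 3 to day 7 in BM, Hmgcs1, Fdft1 (adjusted p = 0.027), Cyp51 (0.032) and Msmo1 (0.044) were called higher, 4 of 18, where 5.5% of all genes were called in either direction.

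In AM after LPS no sterol enzyme was called against day 0 in the fit of all libraries. At day 1, 14 of 18 lay above 0 with a median of 0.40, against -0.20 for all genes tested. None had an unadjusted p under 0.05 and DESeq2 called 0. Without the 2 libraries with the fewest genes, 1 was called higher at day 1, where 14% of all genes were called in either direction. All 4 AM day 1 libraries had a larger sterol sum than the 3 AM day 0 libraries. For Sqle, the AM day 0 levels of 47.1, 47.6 and 50.6 CPM lay below all AM day 1 levels (0.57, not called). At day 3 the median was 0.17, with 14 of 18 above 0. At day 7 it was -0.22 with 12 of 18 below 0, and it turned to 0.35 with a term for the library number range and to 0.32 once the Y-linked sum entered the model. The range term counted AM at day 0 with the high range, so the value of 0.35 rests on that coding. Against day 3, AM at day 7 had 17 of 18 below 0 with a median of -0.30, which turned to 0.01 and 0.10 with the same terms. All AM day 7 libraries lie in the low range of library numbers and hold at most 4.09 CPM of the Y-linked genes. The AM libraries of days 0, 1 and 3 hold 146 to 227 CPM, so Y-linked level and day 7 cannot be told apart within AM. The values of 0.32 and 0.10 thus rest on the spread of that sum within groups, which was widest in BM at day 3 (0.0479 to 169 CPM).

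Among the regulators, Srebf2 moved apart from the enzymes it is known to control. Its level was 202, 210 and 197 CPM in AM at day 0, then 168, 233, 202 and 170 CPM in AM at day 1, and 101, 106 and 136 CPM in AM at day 3. In BM it was 263, 250, 302, 252 and 279 CPM at day 1, then 105, 62.1, 137 and 107 CPM at day 3, and 159, 145 and 126 CPM at day 7. All BM day 1 libraries lay above all other libraries, on the day when the sterol enzymes were low in them. Srebf2 was higher in BM than in AM at day 1 (0.48 ± 0.18, adjusted p = 0.042), and it fell in BM from day 1 to day 3 (-1.39 ± 0.18, 2.61-fold lower, adjusted p = 3.4e-06). It fell in AM from day 0 to day 3 (-0.83 ± 0.21, adjusted p = 0.029).

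The fall of Srebf2 in BM was called under every alternative run. Its fall in AM ended without any of the AM day 0 libraries or without AM day 3 replicate 1 or 2 (adjusted p 0.064 to 0.22), with no filter and with a term for the library number range. The day 1 difference between BM and AM ended without any 1 of 14 libraries (adjusted p 0.053 to 0.11), without both libraries with the fewest genes and with a term for the library number range. Within the library number ranges at day 3, Srebf2 in BM against AM was -0.69 in the low range and 0.24 in the high range.

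Insig1, itself a target of SREBP, was lower in BM than in AM at days 1 and 3, as most sterol enzymes were. It was 109, 148, 150 and 146 CPM in AM at day 1 and 90.6, 118, 45.4, 53.7 and 68.2 CPM in BM at day 1 (-0.88 ± 0.27, adjusted p = 0.018). At day 3 it was 79.7, 110 and 104 CPM in AM and 21, 44.8, 60.7 and 35.9 CPM in BM (-1.27 ± 0.31, adjusted p = 0.021). At day 7 it was 126, 137 and 59.7 CPM in BM, where replicate 3 was again the low library, and 112 to 139 CPM in AM. The groups overlapped through BM day 1 replicate 2 at day 1 and did not overlap at day 3. In BM Insig1 fell from day 1 to day 3 (-0.89 ± 0.28, adjusted p = 0.024) and rose from day 3 to day 7 (1.40 ± 0.31, adjusted p = 0.0087). Over the first of these steps the median of the sterol enzymes was 0.25, with 10 of 18 above 0.

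No Insig1 call held under every alternative. The day 1 call ended without BM day 1 replicate 3 or 4 (adjusted p 0.054 to 0.057), and the day 3 call without AM day 3 replicate 2 or 3 (0.068 to 0.078). The fall in BM ended without BM day 1 replicate 2 or BM day 3 replicate 1 or 4 (0.057 to 0.071), and the rise without BM day 7 replicate 1 or 2 (0.062 to 0.079). The compared groups alone ended the day 3 call, the fall and the rise (adjusted p of up to 0.18, 0.17 and 0.19), the Y-linked sum in the model ended the day 1 and day 3 calls, a term for the library number range ended the fall, and the absence of a filter ended the day 1 call (up to 0.13).

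Srebf1 was 165, 169 and 143 CPM in AM at day 0 and 83.2, 63.0, 105 and 111 CPM in AM at day 1. The groups did not overlap, and the difference of -0.81 ± 0.35 was not called (adjusted p = 0.18). In BM at day 1 it was 98.3, 106, 106, 85.2 and 124 CPM, a difference of 0.20 ± 0.31 from AM at day 1 that was not called. The exon counts do not separate the SREBP-1a and SREBP-1c transcripts. Scap, Insig2, the other Insig protein, and Stard4, a cytosolic sterol carrier, were called in no comparison.

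**Figure D4:**
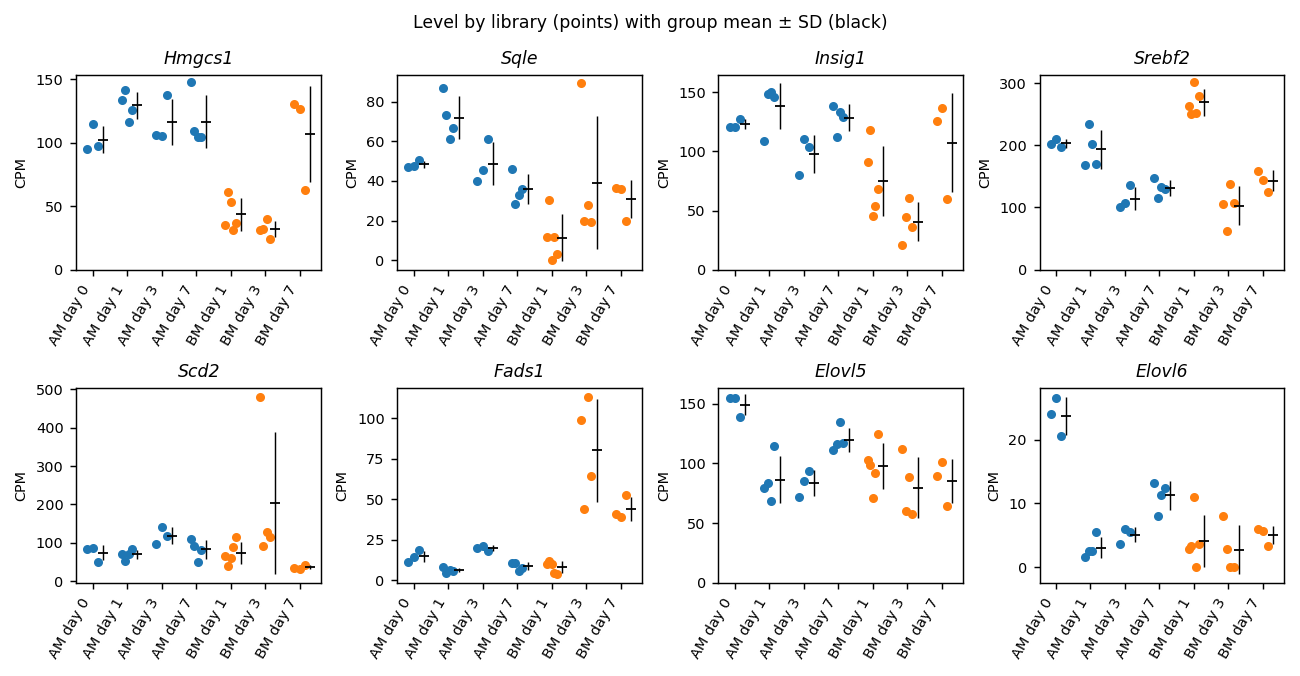
Level in CPM of 8 of the genes in each library (points), with the mean ± SD of each group in black, AM in blue and BM in orange, each panel with its own linear axis. Hmgcs1 and Insig1 are low in BM at days 1 and 3, Srebf2 is highest in BM at day 1, Fads1 is high in BM at days 3 and 7, and a single BM day 3 library sets the spread of Scd2 and Sqle there.

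The direction of the fatty acid enzymes in BM against AM was not the same over the days. The median was 0.18 at day 1, -0.07 at day 3 and -0.33 at day 7, against 0.06, -0.07 and 0.03 for all genes tested. At day 1, 7 of 9 lay above 0, at day 3, 3 of 9, and at day 7, 1 of 9. At each day 1 of 9 was called, lower at day 1 and higher at days 3 and 7. Of all genes, 13.8% were called lower at day 1, and 0.997% and 1.48% higher at days 3 and 7. At day 1 the share of the branch was thus near that of all genes. Their summed level was 602 to 688 CPM in BM at day 1 and 454 to 784 CPM in AM at day 1, so the groups overlapped. In BM at day 7 it was 445 to 449 CPM, below the 521 to 593 CPM of AM at day 7.

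Fads1, the delta-5 desaturase of polyunsaturated fatty acids, was the member with the largest called rise. In BM it was 10.2, 11.8, 9.78, 4.61 and 3.66 CPM at day 1, then 99.0, 44.1, 113 and 64.0 CPM at day 3, and 41.1, 38.8 and 52.5 CPM at day 7. In AM it was 11.2, 14.5 and 18.3 CPM at day 0, then 8.28, 4.65, 6.14 and 5.77 CPM at day 1, then 20, 21.3 and 17.9 CPM at day 3, and 10.5, 10.6, 5.89 and 7.72 CPM at day 7. The BM libraries of days 3 and 7 lay above all other libraries. It rose 9.98-fold in BM from day 1 to day 3 (3.32 ± 0.44, adjusted p = 4.7e-06). BM exceeded AM 4.06-fold at day 3 (2.02 ± 0.51, adjusted p = 0.024) and 5.08-fold at day 7 (2.35 ± 0.48, adjusted p = 0.0048). The day 3 difference was 1.94 and 2.05 within the low and high library number ranges.

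The rise of Fads1 in BM and its day 7 difference were called under every alternative run. The day 3 call ended without AM day 3 replicate 1, 2 or 3 or BM day 3 replicate 3 (adjusted p 0.069 to 0.11), with no filter, once the Y-linked sum entered the model, and in a fit of the 2 groups alone. From day 1 to day 3, the change in BM exceeded the change in AM by 1.65 ± 0.64, which was not called (adjusted p = 0.098). Fads2, the delta-6 desaturase that lies next to Fads1, was 0, 9.25, 33.7 and 0.11 CPM in BM at day 3 and was called in no comparison.

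Of the stearoyl-CoA desaturases, which place the double bond of oleic acid, Scd2 changed in BM and Scd1 differed between the cell types. Scd2 was 66.7, 40.2, 61.5, 88.4 and 115 CPM in BM at day 1, then 480, 91.3, 128 and 116 CPM at day 3, and 36.2, 32.3 and 43.2 CPM at day 7. Its fall from day 3 to day 7 was 5.48-fold (-2.45 ± 0.45, adjusted p = 0.0019), with no overlap (0.1 when the compared groups were fitted alone), and was -2.70 and -1.80 within the low and high library number ranges. Its rise from day 1 to day 3 (1.45 ± 0.36, adjusted p = 0.0058) rested on BM day 3 replicate 1, the library with 27619 CPM of fibroblast and endothelium markers. In a fit of the compared groups alone it was not called. Without that library the rise was 0.60 (adjusted p = 0.1) and the fall was -1.58 and still called.

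Scd1 was 60.5, 22.9, 163 and 71.1 CPM in AM at day 1 and 6.78, 6.25, 38.2, 3.51 and 4.66 CPM in BM at day 1. BM was lower (-2.74 ± 0.94, adjusted p = 0.031), with overlap through BM day 1 replicate 3. The call ended without AM day 1 replicate 3 or BM day 1 replicate 1, 2, 4 or 5 (adjusted p 0.063 to 0.11), with no filter and with a term for the library number range. Scd1 and Scd2 share 4.56% and 3.97% of their 50-base words with other genes, among them each other.

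In AM after LPS most fatty acid enzymes lay below day 0. At day 1, 8 of 9 were below 0 with a median of -0.54, against -0.20 for all genes tested, and 1 of 9 was called lower, where 3.06% of all genes were. At day 7, 8 of 9 were below 0 with a median of -0.65, against -0.04; none was called, 1 had an unadjusted p under 0.05 and DESeq2 called Acly. The median stayed below 0 at days 1, 3 and 7 under the other settings of scaling, filter, test and covariates, between -0.84 and -0.49. Markers of some other cell types were lower in AM at day 1 as well, and those of others were higher after LPS. The sum of 9 alveolar type II epithelium markers was 284 to 358 CPM in AM at day 0, 87.7 to 135 CPM at day 1, 93.2 to 158 CPM at day 3 and 277 to 320 CPM at day 7. Of these, Epcam alone was 124 to 187 CPM at day 0 and 3.27 to 38.4 CPM at day 1. The sum of 5 B cell markers was 52.2 to 84.0 CPM at day 0 and 1.31 to 17.5 CPM at day 1, that of 7 T and NK cell markers was 21.9 to 44.5 and 2.23 to 12.7 CPM, and that of 6 dendritic cell markers was 125 to 447 and 23 to 208 CPM. That of 10 neutrophil markers was 48.7 to 63.4 CPM at day 0, 104 to 591 CPM at day 1 and 161 to 381 CPM at day 3. Blood monocyte markers summed to 236 to 242 CPM at day 0 and 535 to 1894 CPM at day 3. Their part in the result was not tested.

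The called gene was Elovl5, an elongase of polyunsaturated fatty acids. It was 154, 154 and 139 CPM in AM at day 0 and 79.1, 83.8, 68.6 and 115 CPM at day 1, without overlap (-0.79 ± 0.24, adjusted p = 0.043). At day 7 it was 111, 116, 135 and 117 CPM, all below day 0, and 3 of the 4 libraries lay above every day 1 library. The day 1 call ended without any 1 of 14 libraries (adjusted p 0.051 to 0.16), among them each AM day 0 library, and with DESeq2 size factors, no filter or a term for the library number range.

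Elovl6, which extends palmitic acid, was 24, 26.5 and 20.5 CPM in AM at day 0, then 1.67, 2.56, 2.60 and 5.54 CPM at day 1, then 3.73, 6.03 and 5.58 CPM at day 3, and 13.2, 8.03, 11.3 and 12.5 CPM at day 7. All libraries after LPS lay below all day 0 libraries. No difference was called, and at day 1 it was -2.93 ± 1.41 (adjusted p = 0.23). It was chosen for this account after its values were seen.

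Acly was 418, 369 and 306 CPM in AM at day 0 and 236, 230, 244 and 234 CPM at day 7 (-0.63 ± 0.17, adjusted p = 0.14). Fasn, fatty acid synthase, was 104, 121 and 90.5 CPM in AM at day 0, then 40.6, 36.3 and 67.2 CPM at day 3, and 56.0, 41.8, 43.2 and 43.4 CPM at day 7. The AM day 3 and day 7 libraries did not overlap with day 0, and neither difference was called (-1.13 ± 0.71 and -1.19 ± 0.65). Without the 2 libraries with the fewest genes, which lie in other groups but enter the shared estimate of the spread, both were called (adjusted p = 0.018 and 0.018). In BM, Fasn was 92.9, 78.9, 81.7, 89.1 and 113 CPM at day 1 and 0.248, 34.4, 64.5 and 25.9 CPM at day 3, without overlap (-1.54 ± 0.60, adjusted p = 0.06).

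Acaca, the acetyl-CoA carboxylase, was 28.1, 74.3, 47.4, 43.8 and 58.4 CPM in BM at day 1 and 0.0825, 28.4, 16.5 and 25.3 CPM in BM at day 3. In AM it was 40.7, 46.3 and 29.1 CPM at day 0 and 17.7, 23.2, 29.6 and 33.5 CPM at day 1. No difference of Acaca was called. Of its 50-base words, 30.4% also stand in other genes.

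Across the 26 libraries the sterol enzymes varied together more than the fatty acid enzymes did. The Pearson correlation of each sterol enzyme with the mean standardised log2 level of the other 17 ran from -0.01 (Tm7sf2) to 0.89 (Hsd17b7), with 0.85 for Hmgcs1 and 0.83 for Mvd. For the fatty acid enzymes it ran from -0.43 (Fads1) to 0.45 (Acly). The sterol mean correlated with Insig1 at 0.81, with Scap at 0.55, with Srebf1 at 0.34 and with Srebf2 at -0.05. The branch means correlated with each other at 0.32. The libraries share groups, depth and the outlying libraries named above, so these values describe the set and carry no test.

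Other genes of the pathway were counted from further lists. Of 9 genes of the isoprenoid side branches, which use farnesyl diphosphate for dolichol, ubiquinone and protein prenylation, Nus1 alone was called. This subunit of the dolichol synthase rose in AM at day 1 (160 to 522 CPM on average, 1.71 ± 0.24, adjusted p = 1.7e-05) and was lower in BM than in AM at day 1 (-2.71 ± 0.20, adjusted p = 2.1e-10) and at day 3 (-0.97 ± 0.22, adjusted p = 0.013). Of all genes, 3.22% were called higher in the first of these comparisons, and 13.8% and 2.99% lower in the others. Of 8 genes of SREBP processing and turnover, 1 was called in 1 comparison: Mbtps1, the site-1 protease that releases SREBP, was higher in BM than in AM at day 1 (0.67 ± 0.24, adjusted p = 0.035). In that comparison 15.2% of all genes were called higher, a share near that of this list.

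Of 10 tested genes of fatty acid supply and cofactors, 3 were called higher and none lower in AM at day 1 against day 0, where 3.22% of all genes were called higher, with a median of 0.58 against -0.20 for all genes tested. These were the acyl-CoA synthetases Acsl1 (85.1 to 499 CPM on average, 2.55 ± 0.50, adjusted p = 0.0017), Acsl4 (0.89 ± 0.23) and Acsl5 (0.64 ± 0.19). Acsl1 was still higher at day 3 (2.52 ± 0.51, adjusted p = 0.0048) and fell from day 3 to day 7 (-1.79 ± 0.46, adjusted p = 0.045). In BM against AM at day 1, 3 of 10 were called lower, against 13.8% of all genes, among them Acsl1 (-1.99 ± 0.40).

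Of 9 tested genes of elongation and desaturation outside the members, 3 were called lower and 1 higher in BM at day 1 against AM, with a median of -1.38 against 0.06 for all genes tested, of which 13.8% were called lower and 15.2% higher. Among the lower ones were Elovl1, an elongase of very long chains (107 against 38.1 CPM, -1.49 ± 0.21, adjusted p = 6.5e-06) and Tecr (-1.84 ± 0.63), a reductase of the elongation cycle. The higher one was Hacd4 (1.49 ± 0.36). In BM from day 1 to day 3 Elovl1 (1.27 ± 0.21), Tecr (1.88 ± 0.63) and Hacd4 (1.70 ± 0.35) were called higher, 3 of 9, against 10.6% of all genes.

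Of 11 tested genes for LXR, ChREBP and LXR targets, 5 were called lower and none higher in AM at day 1, against 3.06% and 3.22% of all genes. The median was -0.34 against -0.20 for all genes tested, and 3 of 11 lay above 0; 1 was higher at an unadjusted p under 0.05, and DESeq2 called 1 higher. The largest falls were those of Lpin1, a phosphatidate phosphatase (387 to 58.5 CPM, -2.73 ± 0.61, adjusted p = 0.0061), Mylip, a ligase that degrades the LDL receptor (-1.71 ± 0.43), and the sterol exporter Abcg1 (2235 to 706 CPM, -1.66 ± 0.23, adjusted p = 1.4e-05). In BM against AM at day 1, 2 of 11 were called higher and 5 lower, against 15.2% and 13.8% of all genes. Ch25h, which makes 25-hydroxycholesterol, averaged 5.36 CPM in BM and 429 CPM in AM at day 1 (-6.32 ± 0.92, adjusted p = 2.2e-05), and 7.03 and 112 CPM at day 3 (-3.99 ± 0.94, adjusted p = 0.02). Nr1h3, the LXR alpha gene, was higher in BM at day 1 (1.79 ± 0.32, adjusted p = 0.00014), and so was the exporter Abca1 (1.73 ± 0.29).

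Some members cannot be told apart fully from other genes by their reads. Acat2 shares 39.1% of its 50-base words with Acat3 and Tcp1, Fdft1 26.5%, mainly with Ctsb on the opposite strand, which reached 5826 CPM, Idi1 25.3%, Hmgcs1 11.6%, Scap 9.96% and Tm7sf2 9.87% with Vps51 on the same strand. The strand setting of the counting is not given in the sources used here. Mvd, Pmvk, Ebp, Hsd17b7, Nsdhl, Insig2, Stard4, Fasn, Acly, Fads1 and Elovl5 share none.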

How the data were processed

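RNA-seq of 26 macrophage libraries was used. The deposited values are read counts per gene, from poly(A) stranded libraries per the labels' protocols. The submitters' processing notes name HISAT2 2.1.0 and featureCounts 2.0.0, with Trimmomatic 0.39, FastQC 0.11.9 and the build GRCm38; the strand setting and annotation release are not given in the sources used here. Of 55487 genes, 55227 had a symbol, and 0 columns belonged to no listed sample.

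The 7 groups were fitted together with edgeR 4.0.16 in R 4.3.3 (TMM scaling, filterByExpr with a minimum count of 10, robust quasi-likelihood test, Benjamini-Hochberg adjustment over 17143 genes, which hold 99.92% of counts). A gene was called at an adjusted p under 0.05, and every adjusted p is from this test unless another is named. The SE of a fold change is its absolute log2 value divided by the square root of the F statistic of this test. CPM and RPKM were computed from the counts with the TMM library sizes, RPKM with the exon length in the annotation; log2 levels used a pseudocount of 1. The genes, the lists and the rule for named genes (the called members with the largest change in each branch, and the main enzymes and SREBP genes) were chosen with earlier results of these data known. Alternatives were DESeq2 1.42.0, other scalings and filters, the compared groups alone, covariates and left-out libraries. The code of the fit was run on simulated data with planted changes in BM at day 1 alone. Those data held no outlying libraries and no effect of prefix, so the run does not bear on either. Replicate numbers are those of the sample titles, and they showed no pairing: mean correlations of same-numbered libraries were -0.016 to 0.013. The count columns carry other numbers in AM at day 3 and in BM at days 1 and 7. Pairing by the column numbers was not tested.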

Additional observations from a re-analysis of the deposited data

Results flagged for a closer look

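A single library lay far from the others of its group for 10 of the 132 combinations of gene and group with enough libraries (7.58%), where chance flags about 5%. In AM at day 7, replicate 1 was the highest for Hmgcs1 (148 CPM against 105 to 109) and for Fasn (56.0 CPM against 41.8 to 43.4). In AM at day 1, replicate 1 was the lowest for Insig1, at 109 CPM against 146 to 150.

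BM day 1 replicate 3, which had the second fewest genes detected, was the highest for Dhcr7 (48.7 CPM against 6.39 to 14.7) and Scd1 (38.2 CPM against 3.51 to 6.78), and held 0 CPM of Scap against 39.7 to 50.7. BM day 1 replicate 1 was the highest for Fdps, at 8.3 CPM against 0 to 2.33. BM day 3 replicate 1 was the highest for Sqle (89.2 CPM against 19.5 to 28.1) and Scd2 (480 CPM against 91.3 to 128). BM day 3 replicate 3 was the highest for Hsd17b7, a sterol ketoreductase, at 23.2 CPM against 0 to 2.90. The part of the fibroblast and endothelium RNA of BM day 3 replicate 1 in its values was not tested.

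The change from day 3 to day 7 differed between BM and AM for Hmgcs1, by 1.75 on the log2 scale in a test of the difference itself (edgeR adjusted p = 0.03). The call ended without any of 9 libraries and under 4 other settings, with an adjusted p of up to 0.15.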

How the results depend on the processing

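No call turned its direction under any alternative run. Calls of members, given for AM day 1, 3 and 7 against day 0, AM day 3 against 1, AM day 7 against 3, BM day 3 against 1, BM day 7 against 3, BM against AM at days 1, 3 and 7, and the differences of change from day 1 to 3 and 3 to 7, were 1, 1, 0, 0, 0, 6, 3, 11, 4, 1, 0 and 1. Values here moved by over 1.5 times. DESeq2 gave 3, 3, 1 and 2 in the first 4, 12 and 5 within BM, 8 for BM against AM at day 3, and 1 and 3 for the differences of change. Its size factors gave 0, and library size alone 2, for AM day 1 against 0. Without a filter the counts were 0, 0, 2 and 0 (AM days 1 and 3 against 0, BM against AM at day 3, change from day 3 to 7), and with 5 CPM in 3 libraries 1 for AM day 3 against 1. The compared groups alone gave 5, 5, 9 and 6 (AM days 1, 3 and 7 against 0, and 7 against 3), 2 and 0 within BM, and 0 and 7 for BM against AM at days 3 and 7. The library number range gave 0 for AM day 3 against 0 and 0 for the change from day 3 to 7. The Y-linked covariate gave 1, 1, 5, 6, 1 and 0 (AM day 3 against 1, 7 against 3, BM day 7 against 3, BM against AM at days 1 and 3, change from day 3 to 7). Without the 2 libraries with fewest genes the counts were 5, 3, 1 and 2 in the first 4, 6 for BM day 7 against 3, 8 and 2 for BM against AM at days 3 and 7, and 1 for the change from day 1 to 3. Without all BM day 1 libraries they were 2 and 1 (AM day 1 against 0, and 3 against 1). With the replicate block they were 0, 3, 7 and 0 (AM day 1 against 0, BM day 3 against 1, BM against AM at day 1, change from day 3 to 7). The block used the title numbers, and 2 of 26 libraries matched best with their own number. Leaving out each library gave 0 to 3, 0 to 3, 0 to 1, 0 to 1, 0 to 0, 4 to 7, 2 to 4, 8 to 16, 1 to 8, 1 to 2, 0 to 1 and 0 to 1 in the order above. The highest counts for BM against AM came without BM day 3 replicate 1, and the lowest at day 3 without AM day 3 replicate 3. The cause was not tested.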

Other observations

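Among 10170 genes with a mean of at least 5 CPM, those whose log2 level was most like the mean of the sterol enzymes across the 26 libraries were Cyb5b, an outer mitochondrial membrane cytochrome (Pearson r = 0.946), Mcoln3 (0.906), Kynu (0.903), Ch25h (0.901) and Rab19 (0.896). For the fatty acid enzymes the likeness was lower, with Cdh1 (0.749), Dnah11 (0.697), Syne2 (0.692), Hsd17b4 (0.672) and Tppp (0.663) leading. These are the highest of many values over libraries that share groups, and they carry no test.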
